A study of Mus musculus with 125 samples.

Results

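Brain-only endothelial regions are stretches of open chromatin seen in both adult mouse brain libraries labelled endothelial. No endothelial library of adult heart, kidney, liver, lung or retina showed them. The name follows the library labels, and the part of other nuclei in these regions was not tested. The regions were selected on the authors' ATAC-seq peak lists, in which a peak marks DNA that the Tn5 transposase could reach. The peaks of all 12 adult endothelial libraries were merged into 109038 regions, of which 32863 had a peak in both brain libraries. Of these, 27108 also had a peak in an endothelial library of another adult organ and are called organ-shared below. The remaining 5755 were split by the adult brain input library, made from unsorted nuclei: 3410 overlapped an input peak and were set aside (called input-shared), and 2345 did not. These 2345 are the brain-only regions. The same rule gave 1006 heart-only and 5637 liver-only regions. The adult peaks chose the members, so their adult values are given as a description and no test is made on them.

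The study profiled nuclei tagged with GFP in vessels, in mice given tamoxifen at 0.015 mg/kg to switch the tag on. The Cre driver is not given in the sources used here. Adults of 2 months were collected 7 days after tamoxifen. Pups received tamoxifen at P1 and P3; their libraries are labelled P6, while the protocol names P7 for the collection. Embryos received it at E10.5 and were collected at E12.5, labelled E12. The groups used here were endothelial libraries of brain (2 adult, 3 P6, 3 E12), of other organs (10 adult, 11 P6 including 3 of retina, and 8 E12 from heart and trunk), and input libraries of the same organs. All endothelial groups share the tag and the tamoxifen. The protocol does not say whether the libraries of a group came from separate animals, so the spread between them may be technical.

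The 66 ATAC-seq libraries held between 10.1 and 59.1 M (mega) tags, and 4 facts about single libraries touch the results. P6 brain library 1 had 27160 peaks from 19.6 M tags, while brain libraries 2 and 3 had 87133 and 79903 peaks from 20.2 and 19.1 M tags. The series record states that the submitters later replaced the signal tracks of P6 brain libraries 1 and 2; peak lists, not tracks, were used here. The library labelled P6 retina input 2 shared peaks with some brain inputs more than with retina inputs. The overlapping fraction of peaks was 0.841 with P6 brain input 2 and 0.756 with P6 brain input 3. It was 0.532 and 0.517 for the other 2 P6 retina inputs, 0.517 for P6 brain input 1 and 0.521 for the E12 brain input. E12 heart library 3 had 39096 peaks from 10.1 M tags, the fewest tags of all. Among the adult endothelial libraries, those of brain carry aligned-file names of a kind found in no other organ, so brain and processing cannot be told apart there; kidney and liver share a kind, and at P6 brain libraries 1 and 2 and the retina libraries carry names of the same kind.

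Endothelial cells line every vessel, and those of the brain form the blood-brain barrier: tight junctions seal them, vesicle transport is low, and membrane transporters carry nutrients in and drugs out. Wnt ligands from neural cells maintain this state through Frizzled receptors, the co-receptors Adgra2 (Gpr124) and Reck, and β-catenin, which acts on DNA with the TCF/LEF transcription factors. Regions of open chromatin that are not promoters are often enhancers, and an enhancer used in a single organ can give a gene organ-specific expression.

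Sequence can be shown for the few brain-only regions that lay over a gene start. Of the regions with a peak in both adult brain libraries, 27.3% overlapped a start known from RefSeq (GRCm38.p6, the assembly that mm10 is built on). Of the 2345 brain-only regions, 31 (1.32%) did. The 5 with the highest mean adult fold enrichment are printed first, followed by that of Slc6a13, a GABA transporter of the added fibroblast list described below. Each runs from 250 bases before the start to 50 after it, 5′ to 3′ on the gene's strand. Capitals mark matches, on either strand, to 6 short motifs: CTTTGAT (TCF/LEF), ACAATG (SOX), TGTTTAC (FOX), CCGGAAG (ETS), CAGCAGG (ZIC) and GGGCGGG (KLF/SP), none of which contains another.
Ptgdr, minus strand, chr14:44859326-44859625: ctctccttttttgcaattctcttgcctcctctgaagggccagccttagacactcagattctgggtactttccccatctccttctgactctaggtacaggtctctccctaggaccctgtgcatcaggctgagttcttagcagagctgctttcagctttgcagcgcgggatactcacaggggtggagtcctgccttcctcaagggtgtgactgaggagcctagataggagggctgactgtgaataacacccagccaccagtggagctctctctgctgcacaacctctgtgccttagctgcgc
Itih2, minus strand, chr2:10130634-10130933: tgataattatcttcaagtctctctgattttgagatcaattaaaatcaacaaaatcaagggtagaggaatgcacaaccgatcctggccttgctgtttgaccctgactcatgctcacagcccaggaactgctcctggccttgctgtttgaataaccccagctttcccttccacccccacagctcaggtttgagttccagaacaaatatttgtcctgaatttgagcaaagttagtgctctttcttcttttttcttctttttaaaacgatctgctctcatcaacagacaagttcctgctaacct
Slc13a4, minus strand, chr6:35308077-35308376: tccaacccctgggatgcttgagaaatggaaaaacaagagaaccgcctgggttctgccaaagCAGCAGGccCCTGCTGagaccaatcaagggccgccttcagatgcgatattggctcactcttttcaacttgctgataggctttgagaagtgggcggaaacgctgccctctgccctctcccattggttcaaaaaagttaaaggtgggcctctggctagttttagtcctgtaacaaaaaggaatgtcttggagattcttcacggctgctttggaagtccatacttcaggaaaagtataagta
Aspg, plus strand, chr12:112106433-112106732: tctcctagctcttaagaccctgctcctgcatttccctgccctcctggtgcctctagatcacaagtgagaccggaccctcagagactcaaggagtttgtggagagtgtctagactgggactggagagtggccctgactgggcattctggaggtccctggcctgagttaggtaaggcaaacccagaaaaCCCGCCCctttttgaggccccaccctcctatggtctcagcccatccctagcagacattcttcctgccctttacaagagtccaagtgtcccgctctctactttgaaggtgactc
Tecrl, minus strand, chr5:83355146-83355445: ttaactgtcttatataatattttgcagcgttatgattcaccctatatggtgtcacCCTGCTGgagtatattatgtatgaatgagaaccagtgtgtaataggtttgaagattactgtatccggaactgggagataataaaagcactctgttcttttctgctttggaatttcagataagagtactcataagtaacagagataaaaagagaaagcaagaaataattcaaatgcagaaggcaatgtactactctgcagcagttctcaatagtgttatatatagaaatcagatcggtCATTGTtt
Slc6a13, plus strand, chr6:121300038-121300337: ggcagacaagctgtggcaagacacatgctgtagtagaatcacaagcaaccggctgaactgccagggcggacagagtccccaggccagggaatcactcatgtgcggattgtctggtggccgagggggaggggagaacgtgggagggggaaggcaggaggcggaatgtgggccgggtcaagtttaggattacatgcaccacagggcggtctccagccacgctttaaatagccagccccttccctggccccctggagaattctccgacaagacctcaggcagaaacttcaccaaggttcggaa

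None of these 6 windows held the TCF/LEF letters. The Slc13a4 window held 2 ZIC matches, Tecrl 1 ZIC and 1 SOX match, Aspg 1 KLF/SP match, and Ptgdr, Itih2 and Slc6a13 no match to any of the 6. Over all 31 start regions, 3.23% of promoter windows held CTTTGAT, as did 3.22% of all 21263 RefSeq promoter windows of this length. ACAATG was in 3 of the 31 windows, against 2339 of all 21263, TGTTTAC in 3.23% against 3.01%, and CCGGAAG in 6.45% against 11.6%. CAGCAGG was in 6 of the 31 windows, or 19.4%, against 2232 of all 21263. GGGCGGG was in 11 of 31, or 35.5%, against 33.9%, and the median GC content was 55.0% against 56.3%. A match to such letters is not a binding site.

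The gene starts under these windows belong to genes of varied function, and the printed ones had low levels in the adult single-cell library described below. Ptgdr is a receptor for prostaglandin D2; its region, chr14:44859224-44859590, had adult fold enrichments of 5.43 and 5.21 (the authors' ratio of a library's tag pileup to its own local background). It had a peak in 2 of 3 P6 brain and all 3 E12 brain libraries, in none of the other 11 P6 endothelial libraries and in 4 of the other 8 at E12. The regions over Itih2 (5.33 and 4.96 in the adult libraries) and over the sulfate transporter gene Slc13a4 (5.47 and 4.8) had a peak in 2 P6 brain libraries and in no E12 brain library. Those over Aspg (5.83 and 4.33) and Tecrl (5.33 and 4.81) were open more widely at the younger ages, each with a peak in 7 of the other 11 P6 libraries. The remaining starts include those of Pdpn, Six2, Islr, Aldh1a1, Col6a3, Bmp4 and S1pr3. Of the 31 start regions, 25 had a peak in at least 2 P6 brain libraries and 18 in at least 2 E12 brain libraries. Of all brain-only regions 79.1% and 33.6% did. At P6 only 5 of the 31 had no peak in another organ's endothelial library, and at E12 also 5, against 51.0% and 50.9% of all brain-only regions.

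Most brain-only regions lay far from genes' starts. They were narrow, with a median width of 397 bp (quartiles 322 and 513 bp, widest 1282 bp), and the median distance from their middle to the nearest protein-coding gene start was 42.5 kb. Only 56, or 2.39%, lay within 1 kb of a start, against 41.0% of the organ-shared regions, 5.6% of the input-shared regions and 13.6% of all merged regions. The brain-only share was 7.6% with lists of equal length and 4.29% without the input condition. A further 15.1% lay at 1 to 10 kb, 37.1% at 10 to 50 kb and 45.5% beyond 50 kb, among them 3.8% beyond 500 kb. The heart-only and liver-only regions, chosen by the same rule, had 2.09% and 2.36% within 1 kb, so the low share near starts was not particular to brain. Gene bodies held 1144 of the brain-only regions (48.8%), against 62.0% of organ-shared regions; exons and introns were not separated here.

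**Figure D1:**
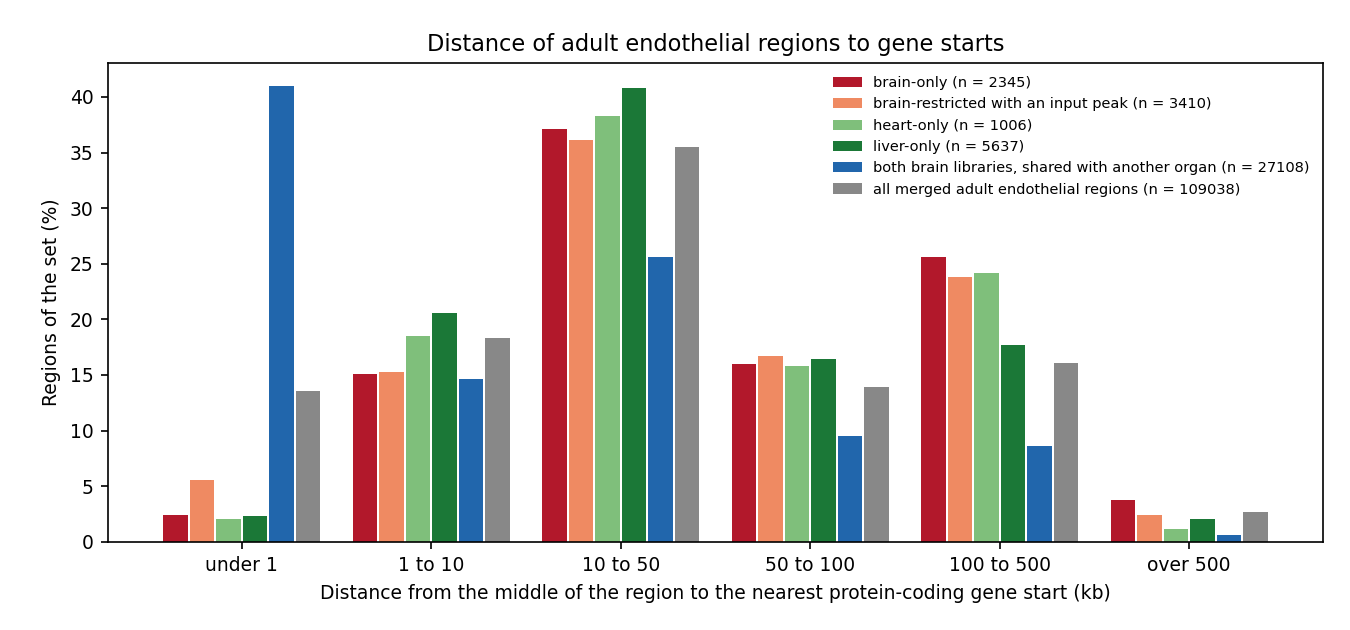
Share of regions (%, vertical axis) by distance from the region's middle to the nearest protein-coding gene start (kb, horizontal axis), for 6 sets of adult endothelial regions. The brain-only bar is 2.39% under 1 kb, next to 41.0% for regions shared with another organ, and the 3 single-organ sets have similar shapes.

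By chromosome, 203 brain-only regions (8.66%) were on chromosome 1 and 182 (7.76%) on chromosome 3, which held 6.75% and 5.8% of the regions with a peak in both brain libraries. Chromosomes 11 and 19 held 95 (4.05%) and 33 (1.41%), against 6.14% and 2.71%. None was on chromosome Y. The regions were mostly isolated, with 186 of them (7.93%) having another brain-only region within 10 kb.

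In the adult libraries the brain-only peaks were modest. In adult brain library 1 (38465 peaks from 17.9 M tags) the fold enrichment ran from 2.24 through a median of 3.94 to 8.12, and the pileup from 8.0 through 11.5 to 44.1 tags. In library 2 (45094 peaks from 23.9 M tags) the fold ran from 2.03 through 3.68 to 7.25 and the pileup from 9.0 through 13.2 to 52.2. Organ-shared regions had medians of 4.59 and 4.44. The authors' −log10 q-value had medians of 3.59 and 3.63 over the brain-only regions and of 6.43 and 7.67 over the organ-shared ones, so many members lay near the caller's limit: 245 and 249 were below 2 in the 2 libraries. Just outside the rule were 852 regions with a peak in exactly 1 endothelial library of another adult organ, 498 of them in retina library 1. Another 5168 regions had a peak in a single brain library, with median −log10 q-values of 2.47 for the 1570 in library 1 and 2.06 for the 3598 in library 2. In a library of many nuclei, a region open in few cells cannot be told apart from one weakly open in many.

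At P6 most brain-only regions already had a peak in brain endothelial libraries, but the 3 libraries differed widely. Library 2 had a peak at 90.6% of them, library 3 at 82.3% and library 1, with its short list, at 20.9%. Among the other 11 P6 endothelial libraries the share ran from 1.54% to 26.5% with a median of 11.5%. Retina, the other neural tissue, had 26.5%, 20.3% and 24.5% and heart 22.5% and 21.6%, so retina and heart overlapped. The retina lists were longer, at 84241 to 92863 peaks against 72110 and 76326 in heart. Lung had 11.5% and 9.3%, kidney 7.16% and 2.64%, and liver 4.43% and 1.54%. P6 brain library 1 thus lay within the range of retina and below heart, while libraries 2 and 3 lay above every other library. All merged regions behaved otherwise, with peaks at 22.7%, 53.2% and 51.9% of them in the P6 brain libraries and at 35.2% to 57.1% in the other 11.

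The length of a peak list moves with these shares, so the strongest 27160 peaks of each library, the length of the shortest brain list, were also compared. The brain libraries then covered 20.9%, 25.3% and 24.3% of the brain-only regions. The other 11 covered 0.299% to 3.97%, the upper value from retina library 1, and the groups did not overlap. Over all merged regions the same strongest peaks covered 22.7% to 23.3% in the brain libraries and 22.9% to 24.0% in the other 11. Retina carries aligned-file names of the same kind as brain libraries 1 and 2, and its 3 libraries reached 3.97%, 2.56% and 2.64%. The heart libraries reached 3.75% and 3.54%, within the range of retina.

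At E12 the pattern was different. The 3 brain libraries had a peak at 32.8%, 32.9% and 35.1% of the brain-only regions (mean 33.6% ± 1.27, SD, n = 3). Heart libraries had 32.7%, 30.8%, 5.07% and 35.3%, the 5.07% being library 3 with its few tags, and trunk libraries had 18.6%, 17.5%, 23.6% and 27.1%. Brain and heart overlapped in full apart from that library, and trunk lay below brain. Every one of these libraries had a peak at a larger share of all merged regions: 53.4% to 55.8% in brain, 25.4% to 56.0% in heart, where library 3 was again lowest, and 44.3% to 56.3% in trunk, so 3 of the 4 trunk libraries were below brain over all regions too. With the strongest 27160 peaks of each library, brain covered 6.01% to 8.91% (median 7.51%) and the other 8 libraries 3.24% to 7.21% (median 3.94%), which overlap; over all merged regions they covered 21.1% to 22.0% and 20.3% to 22.1%.

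**Figure D2:**
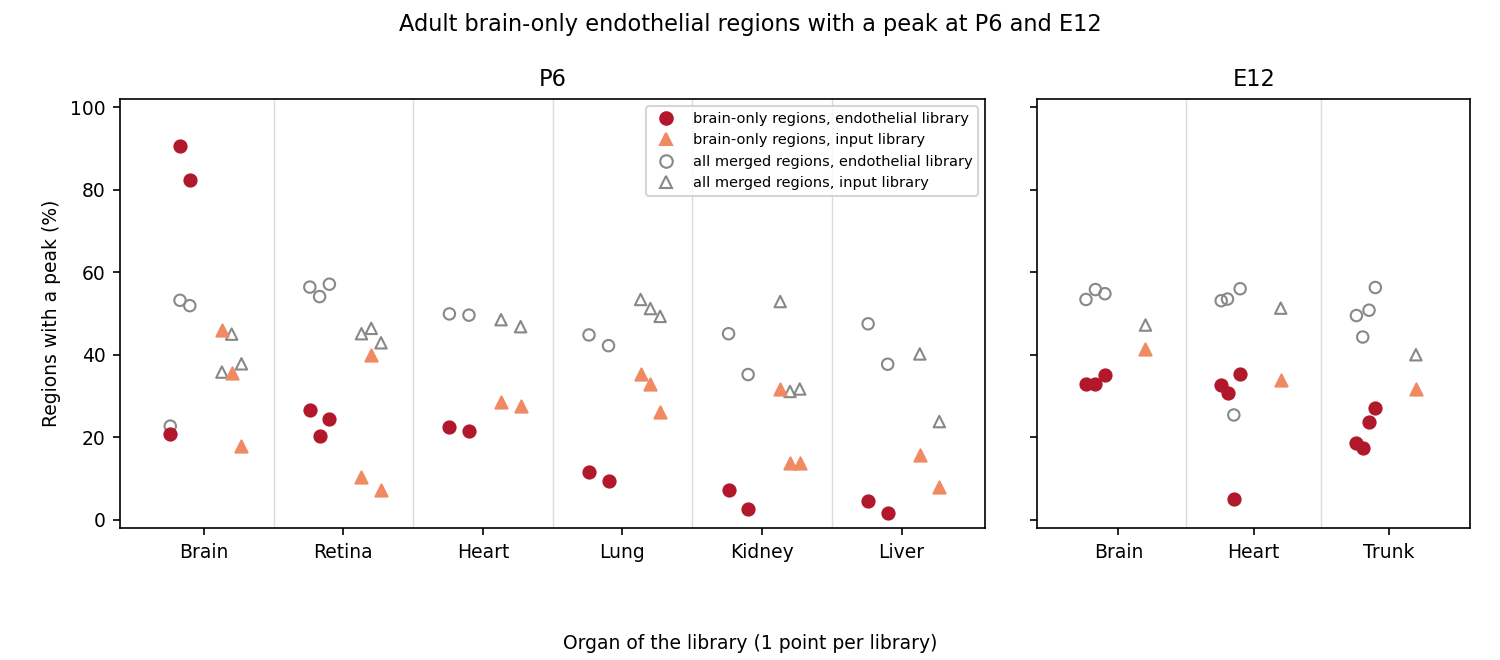
Share of regions with a peak (%, vertical axis) in each P6 and E12 library, by organ (horizontal axis, 1 point per library); filled symbols are the 2345 brain-only regions, open grey symbols all merged regions, circles endothelial and triangles input libraries. P6 brain endothelial libraries 2 and 3 stand at 90.6% and 82.3%, library 1 at 20.9% among retina and heart, and at E12 brain and heart overlap.

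Counted per region, 1855 brain-only regions (79.1%, Wilson 95% interval 77.4% to 80.7%, counting error only) had a peak in at least 2 of the 3 P6 brain libraries. The share was 82.7% for input-shared, 96.5% for organ-shared and 46.5% for all merged regions. In all 3 P6 brain libraries there were 484 (20.6%), near the 22.0% of all merged regions, a number that library 1 limits. At least 2 of the 3 E12 brain libraries had a peak at 787 (33.6%, Wilson interval 31.7% to 35.5%), against 32.8% of input-shared, 91.6% of organ-shared and 54.8% of all merged regions, so the brain-only share at E12 was below that of all regions. Without P6 brain library 2 or 3, where both remaining libraries were required, the P6 share fell to 20.7% and 20.8%. It was 48.2% and 63.5% when adult brain library 1 or 2 was left out of the choice of members. With an equal number of top peaks in every list, which also changed the members, the P6 share was 36.0% and the E12 share 10.2%.

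The ages combine into a few patterns. The most frequent was presence in at least 2 P6 brain libraries with no peak in any E12 brain library, held by 1024 brain-only regions (43.7%). Input-shared regions had this pattern as often, at 44.4%, while all merged regions had 6.49% and organ-shared regions 5.11%. Presence in at least 2 libraries at both ages was held by 707 (30.1%), against 38.5% of all merged regions. Only 21 (0.896%, against 9.16%) had at least 2 E12 brain peaks and no P6 brain peak, and 108 (4.61%, against 28.7%) had no brain endothelial peak at either younger age. Regions seen in at least 2 E12 brain libraries lay a median of 34.9 kb from a start, and those with no E12 brain peak 45.4 kb.

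Restriction to brain was partly shared by the younger ages. No endothelial library of another organ had a peak at P6 for 1197 brain-only regions (51.0%, against 16.4% of all merged regions). Of these, 858 (36.6% of the brain-only regions, against 3.23% of all) also had a peak in at least 2 P6 brain libraries. A further 215 (9.17% against 2.71%) were open in at least 2 P6 brain and at least 2 P6 retina libraries and in none of the 8 P6 libraries of heart, kidney, liver and lung. At E12, 100 regions (4.26% against 1.53%) had at least 2 brain peaks and none in heart or trunk. Input-shared regions had 43.8%, 32.4%, 12.3% and 5.54% for these patterns in the same order. Such restriction was therefore not particular to the brain-only regions.

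Input libraries give the background from other nuclei of the tissue. The rule did not use the adult inputs of other organs, which had a peak at 0.171% to 22.8% of the brain-only regions. Over all merged regions they had 14.9% to 46.3%. None of them covered 1363 brain-only regions (58.1%, against 26.0% of all merged regions). The rest had a peak in unsorted nuclei of another adult organ. The adult brain input was 0 by the rule, but the P6 brain inputs had a peak at 46.1%, 35.6% and 17.9% of the brain-only regions and the E12 brain input at 41.4%. Over all merged regions these inputs had 35.8%, 45.0% and 37.8%, and 47.2% at E12, so P6 brain input 1 alone, with the longest P6 list of 131710 peaks, was higher over the brain-only regions. With the strongest 27160 peaks of each the P6 brain inputs covered 1.24%, 1.49% and 1.62% of the brain-only regions, each below its share of all merged regions (19.4% and 20.2% for inputs 2 and 3), and the E12 brain input 4.52% against 18.4%. The library labelled P6 retina input 2, which shared most peaks with P6 brain inputs 2 and 3, reached 39.9%, and the other P6 retina inputs 10.3% and 7.25%. Inputs of P6 heart had 28.6% and 27.6%, of lung 26.1% to 35.4%, of kidney 13.8% to 31.6% and of liver 7.85% and 15.8%. No P6 brain input covered 935 brain-only regions (39.9%, against 49.3% of all merged regions). Of the 935, 591 (25.2% of the brain-only regions, against 8.58% of all merged regions) had a peak in at least 2 P6 brain endothelial libraries. How far other nuclei contribute to the endothelial peaks at these ages was not tested.

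A per-region test asked whether brain endothelial libraries of P6 and E12, which the rule did not use, had a peak more often than the other endothelial libraries of the same age. It was an exact one-sided permutation test with libraries permuted within age (3 brain against 11 other at P6, 3 against 8 at E12) and Benjamini-Hochberg adjustment over all 109038 regions. The test took each library as its own unit, although several came from the same organ. Its p-values therefore do not measure the spread between organs, and the organs were too few to test as units. After adjustment it called none of the brain-only regions; the background was 0% of all merged regions. The smallest adjusted p was 0.182, at the smallest exact p this design allows, 1.67e-05; 10 regions had that p, 3 of them brain-only, and 37 would have been needed for an adjusted p under 0.05. At an unadjusted exact permutation p under 0.05 the test marked 1035 brain-only regions (44.1%), where the background was 5.36% of all merged regions. It marked 39.8% of input-shared and 3.45% of organ-shared regions. With P6 alone the count was 949 (40.5%, background 3.59%) and with E12 alone 97 (4.14%, background 1.11%). Without P6 brain library 2 or 3 it was 427 (18.2%, background 2.37%) and 433 (18.5%, background 2.4%). With libraries permuted within age and replicate number (a replicate block) it was 466 (19.9%, background 2.49%). Lists of equal length, which also changed the members, gave 431 (27.5%, background 3.54%).

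Regions chosen in the same way for other organs were also open in their own organ at P6. Heart-only regions had a peak at 86.6% and 84.0% in the P6 heart libraries and at 3.98% to 30.6% in the other 12, and liver-only regions at 89.9% and 70.4% in P6 liver and at 1.54% to 37.7% elsewhere. The brain-only regions at 90.6% and 82.3% in brain libraries 2 and 3 were close to these values, and at 20.9% in library 1 far below them.

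Genes near the regions were described by lists of known function, counting a gene where a brain-only region lay in its body or within 50 kb of it. Below, a listed gene is said to have a region by this distance, and the start nearest to the region was often another gene's. Of all 21887 protein-coding genes, 12.1% (2650) had such a region, and 17.6% (3851) had an input-shared region. Of the Wnt pathway and target list, 11 of 20 genes (55.0%) had a brain-only and 8 an input-shared region. For the barrier transporters it was 5 of 18 genes (27.8%) and 4, for tight junction genes 3 of 10 (30.0%) and 3, for brain endothelial transcription factors 3 of 12 and 0, and for other brain endothelial genes 5 of 14 and 2. Of lists for other endothelial roles, 1 of 10 vesicle and transcytosis genes (10.0%), 2 of 12 arterial (16.7%), 0 of 8 venous and 1 of 12 peripheral endothelial genes (8.33%) had a brain-only region. Of the 18 general endothelial genes 7 had one (38.9%), a higher share than that of the barrier, tight junction, transcription factor and other brain lists. The 44 regions near genes of the 5 brain endothelial lists (Wnt, transporters, tight junction, transcription factors, other) had a peak in at least 2 P6 brain libraries in 35 cases and in at least 2 E12 brain libraries in 23, where all 2345 had 79.1% and 33.6%. Within 20 kb the counts were 8 Wnt genes, 3 transporters and 2 tight junction genes; within 100 kb they were 12, 8 and 3, where 4199 of all genes had a brain-only region.

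**Figure D3:**
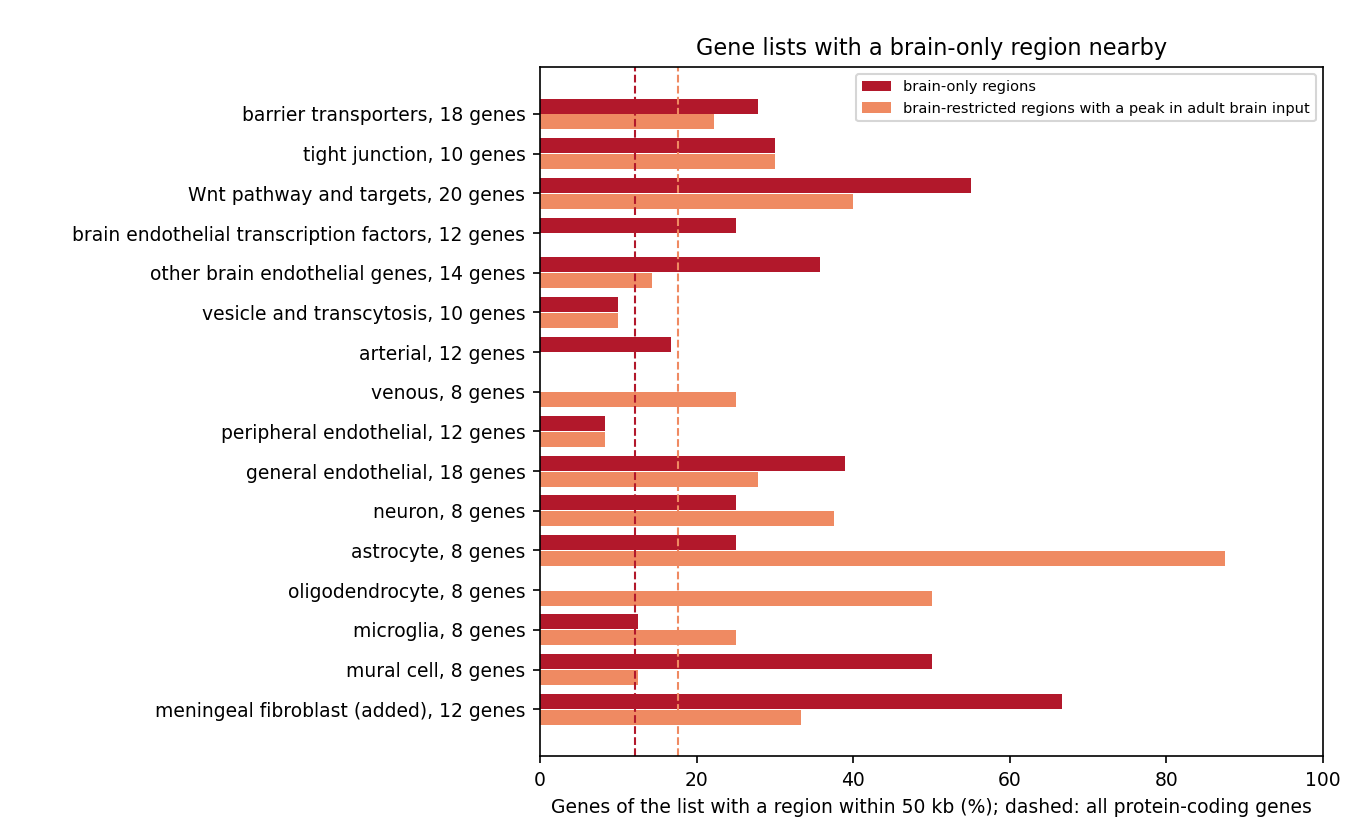
Share of each gene list (%, horizontal axis) with a brain-only region (dark bars) or with a brain-restricted region that overlaps an adult brain input peak (light bars) in or within 50 kb of the gene; dashed lines give the same shares over all protein-coding genes, 12.1% and 17.6%. The added fibroblast list is highest for brain-only regions at 66.7%, followed by the Wnt list at 55.0% and the mural list at 50.0%. The astrocyte list stands out only for the regions that overlap an input peak.

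Among the Wnt genes, the members near co-receptors came first. Adgra2 had a region at chr8:27159210-27159593 with folds of 3.3 and 3.0 in the adult, none, 2.83 and 3.37 in the P6 and 4.01, 2.5 and 2.2 in the E12 brain libraries. It had a peak in no other P6 and 1 other E12 endothelial library. The gene nearest to it was Rab11fip1, at 15.2 kb. Reck had 2 regions that were open more widely. One, chr4:43895273-43895577, had a peak in no P6 brain library, in all 3 E12 brain libraries (3.29, 4.4 and 3.07), and in 3 of 11 other P6 and 5 of 8 other E12 libraries. The other, chr4:43978503-43979122, had a peak in 7 of 11 other P6 and 6 of 8 other E12 libraries. The start nearest to this second region was that of Ccin, at 4.69 kb. The list's receptor genes Fzd4, Fzd6, Lrp5 and Lrp6, and Tspan12, Ctnnb1, Axin2, Notum and Znrf3, had no brain-only region within 50 kb.

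All 4 genes of the TCF/LEF transcription factors, which carry the Wnt signal to DNA, had 1 region each. That of Tcf7, at chr11:52309420-52309873 and 26.6 kb upstream, was open in all 8 brain endothelial libraries: the folds were 3.66 and 3.47 in the adult, 3.99, 5.53 and 5.88 at P6, and 6.25, 4.42 and 5.8 at E12. Elsewhere it had a peak in 1 of 11 P6 and 1 of 8 E12 libraries and in no P6 brain input (exact permutation p = 0.000266, adjusted 0.226). Lef1 had a region at chr3:131064482-131064739, 45.7 kb upstream, with 3.4 and 3.75 in the adult libraries, 3.27 in P6 library 3 alone, and 3.21 and 3.2 in E12 libraries 1 and 3. No endothelial library of another organ had a peak there. The regions of Tcf7l1 and Tcf7l2 were seen at P6 in library 2 alone and in no E12 brain library. The start nearest to the Tcf7l1 region was that of Tgoln1.

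Feedback inhibitors and targets of Wnt signalling held the rest. Nkd1, which dampens the pathway, had 5 regions, the most of the list. One at chr8:88570439-88570976, 43.1 kb downstream of the start, had 3.37 and 2.85 in the adult, 2.86, 4.66 and 4.5 at P6 and 4.1, 3.62 and 4.4 at E12; no other P6 library but 7 of the other 8 at E12 had a peak there. Tnfrsf19, a receptor gene that Wnt signalling induces, had 3 regions. The one at chr14:60994987-60995314 was seen in all 3 P6 brain libraries (2.91, 4.77 and 4.28), in E12 brain library 3 alone (2.24) and in no other P6 library. Apcdd1, a Wnt inhibitor, had a region at chr18:62940623-62941119 open in all 8 brain libraries, with 2.9 and 3.08 in the adult, 4.18, 3.74 and 3.31 at P6 and 5.17, 4.63 and 4.61 at E12. The only other P6 endothelial libraries with a peak there were the 3 of retina, while 5 of the other 8 E12 libraries had one. Rnf43, which removes Frizzled from the membrane, had a region at chr11:87725710-87726309 open in all brain libraries (3.81 and 3.03 in the adult, 5.39, 5.74 and 6.07 at E12), and in all 8 other E12 libraries. The nearest gene was Supt4a for the Rnf43 region and Snx20 for some of the Nkd1 regions.

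The highest adult folds of the list were at Fgfbp1, whose secreted product releases FGF from the matrix. The region chr5:43982908-43983439, 1.37 kb upstream of its start, had 5.69 and 6.51 in the adult, 5.4, 5.65 and 6.88 at P6, and 6.63, 5.35 and 6.86 at E12. Outside brain it had a peak in 2 of 11 P6 libraries, both of retina, and in 2 of 8 at E12 (exact permutation p = 0.00167, adjusted 0.362); all 3 P6 brain inputs had one too. A second region, chr5:44030898-44031449, was seen in P6 libraries 2 and 3 (4.84 and 4.52), in no E12 brain library, and in no P6 or E12 endothelial library of another organ. Over the 19 Wnt regions, 15 had at least 2 P6 and 13 at least 2 E12 brain peaks (79.1% and 33.6% of all brain-only regions did), and 5 had no E12 brain peak. Only 5 of the 19 had no peak in any E12 heart or trunk library, against 50.9% of all brain-only regions. At P6, 8 of the 19 had no peak in another organ's endothelial library, against 51.0%.

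Barrier transporter genes had 6 regions, and 4 of them had no peak in any E12 brain library, as did 1399 of all 2345 brain-only regions. Slc22a8 encodes an organic anion transporter; its region chr19:8614335-8614762, which is also next to Slc22a6, had 5.39 and 4.92 in the adult and 3.88, 4.75 and 4.51 in the P6 libraries. It had no peak in E12 brain or in any other P6 or E12 endothelial library (exact permutation p = 0.00275, adjusted 0.362), while 2 P6 brain inputs had one. Slc7a1, which imports arginine and lysine, had chr5:148283695-148283955 with 4.45 and 5.11 in the adult and 6.81 and 5.4 in P6 libraries 2 and 3. It had no peak in E12 brain, but 1 other P6 and 2 other E12 endothelial libraries and all 3 P6 brain inputs had one. The start nearest to it was that of Mtus2. Slc16a1, the lactate and ketone carrier, had chr3:104610449-104610715, 28.1 kb upstream, with 4.15 and 4.71 in the adult and 3.39 in P6 library 2 alone. The region of the glutamine transporter gene Slc38a5, to which the Ftsj1 start was nearest, was seen at E12 in brain library 3 alone. That of the iron exporter Slc40a1, chr1:45913156-45913636, was the only one of the 6 seen in all 3 E12 brain libraries, with folds of 3.52, 3.03 and 2.87. Of the 6 transporter regions, 5 had at least 2 P6 brain peaks and 1 had at least 2 at E12.

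Of the tight junction genes, F11r (JAM-A) and Lsr, the tricellular junction receptor, had a region that was seen at P6 in library 2 alone and in no E12 brain library. The starts nearest to these regions were those of Tstd1, at 0.934 kb, and Fam187b, at 12.3 kb. Claudin-5 and occludin genes had no brain-only region within 50 kb.

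The transcription factor genes had 5 regions, 4 of them seen in at least 2 E12 brain libraries, as were 33.6% of all brain-only regions. Foxl2 had chr9:98931056-98931689, with 4.27 and 3.7 in the adult, 3.82, 3.64 and 6.44 at P6 and 3.08, 2.83 and 4.08 at E12. A single other P6 library, of retina, and no other E12 library had a peak there (exact permutation p = 6.66e-05, adjusted 0.218). The gene nearest to that region was Gm33778, at 11.7 kb. Zfp366 had chr13:99244708-99245242, inside the gene and 2.06 kb from its nearer end, with 3.91 and 2.87 in the adult, 3.76, 3.51 and 4.68 at P6 and 3.46, 2.46 and 3.86 at E12; outside brain the P6 peaks were the 3 of retina. Near Zic2 there were 3 regions, of which chr14:122432297-122432686 was open in all 8 brain libraries (3.6 and 3.59 in the adult) and in 7 of 8 other E12 libraries. For that region the nearest start was that of Zic5.

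Among other brain endothelial genes, Itih5, which encodes a protein that binds hyaluronan, had 6 regions, including chr2:10242638-10243427 with 4.99 and 4.65 in the adult. Edn3, which encodes endothelin-3, had chr2:174740212-174740556, 20.2 kb upstream, with 3.69 and 3.91 in the adult, 5.79 and 6.44 in P6 libraries 2 and 3 and 3.65 and 4.22 in E12 libraries 2 and 3. That region had a peak in no P6 or E12 endothelial library of another organ (exact permutation p = 0.0018, adjusted 0.362). Bsg, Cxcl12 and Pglyrp1 had the rest. General endothelial genes were not left out, since 7 of 18 had a region within 50 kb. Vwf, the von Willebrand factor gene, had chr6:125729954-125730377 with 5.14 and 5.81 in the adult, 3.11, 7.0 and 4.88 at P6, none at E12 and none in any other P6 or E12 endothelial library.

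**Figure D4:**
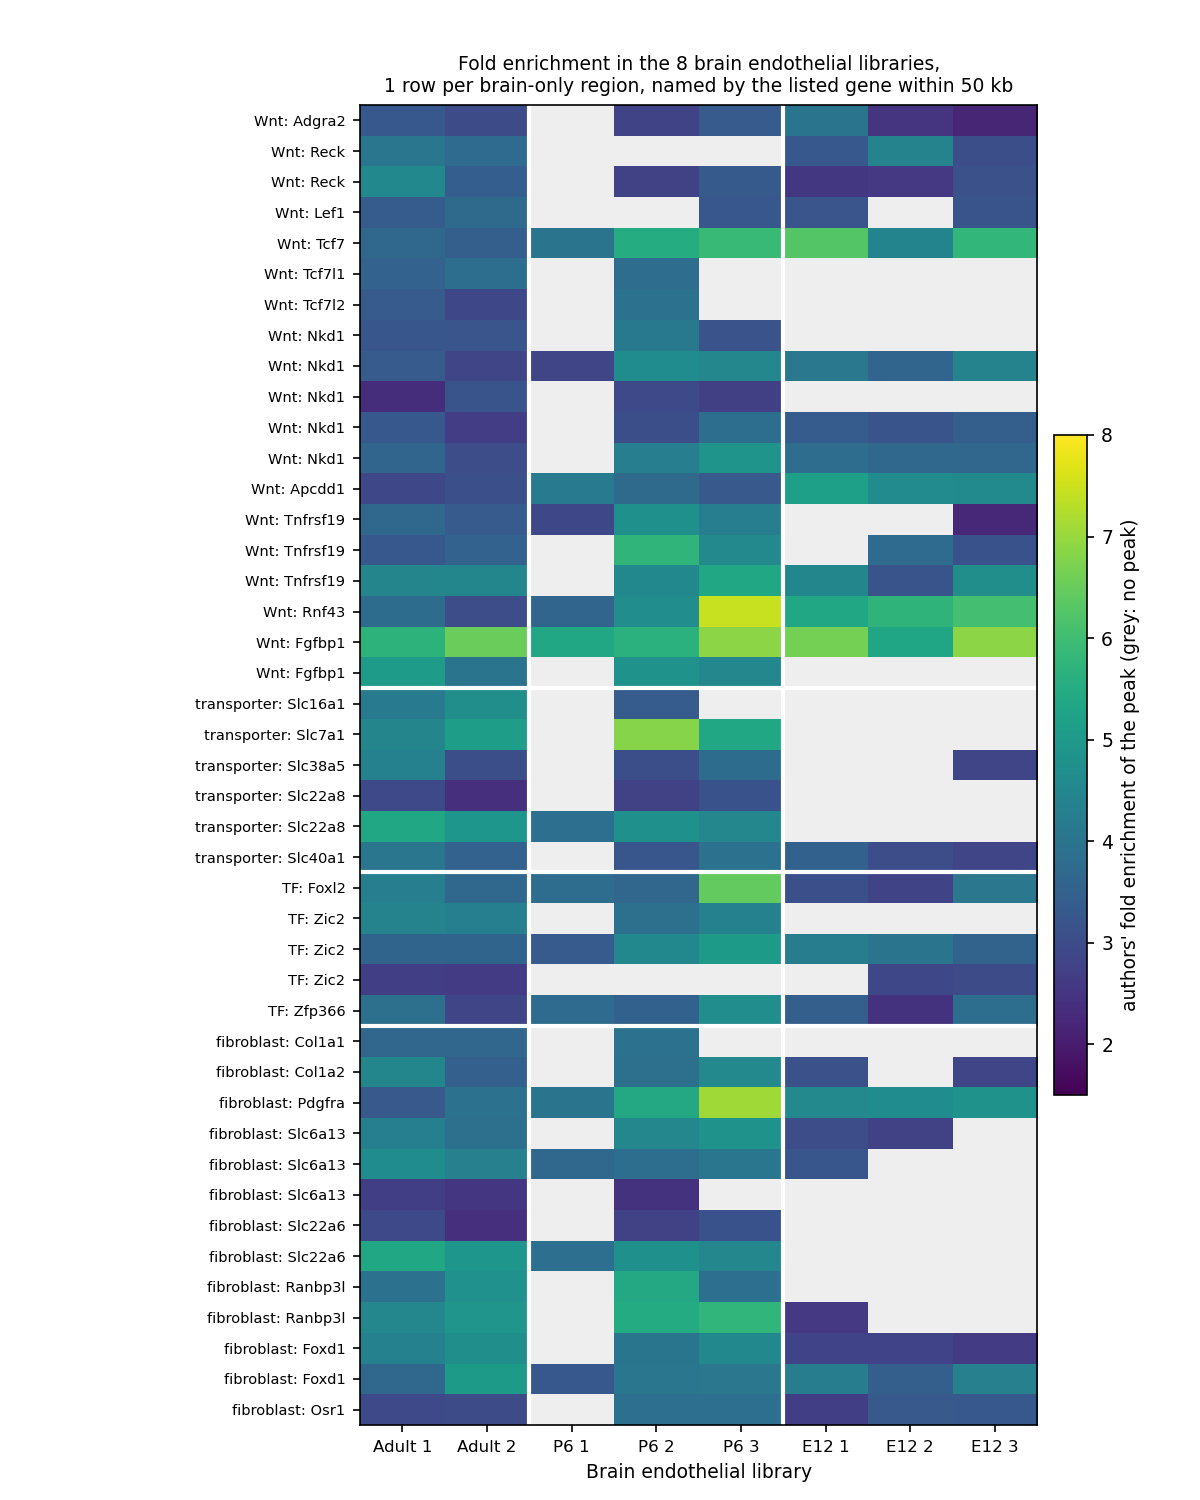
Authors' fold enrichment (colour, grey where there was no peak) of brain-only regions within 50 kb of a gene of the Wnt, transporter, transcription factor and fibroblast lists (rows) in the 8 brain endothelial libraries (columns, adult, P6 and E12). The regions near Tcf7, Apcdd1, Rnf43, the nearer Fgfbp1 region and Foxl2 are filled in all 8 libraries; grey cells are most frequent in the column of P6 library 1.

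Marker genes of other cell types were checked with the same count. A brain-only region lay within 50 kb of 2 of 8 neuron, 2 of 8 astrocyte, 0 of 8 oligodendrocyte and 1 of 8 microglia genes, where input-shared regions had 3, 7, 4 and 2. Mural cell genes had 4 of 8 (50.0%) with a brain-only and 1 with an input-shared region. A list of meningeal fibroblast genes was added after regions over Slc6a13 and near Dcn had been seen. Of its genes, 8 of 12 (66.7%) had a brain-only and 4 an input-shared region. Slc6a13, which led to the list, is among the 8, so this share cannot be ranked against those of the other lists. The 13 fibroblast regions had at least 2 P6 brain peaks in 11 cases and at least 2 E12 brain peaks in 6, against 79.1% and 33.6% of all brain-only regions. Slc6a13 had chr6:121300005-121300332 over its start with 4.31 and 3.9 in the adult, 4.5 and 4.82 in P6 libraries 2 and 3 and 3.03 and 2.75 in E12 libraries 1 and 2. Near Pdgfra, chr5:75215730-75216057 was open in all 3 P6 and all 3 E12 brain libraries. The list also shares the 2 Slc22a6 regions with Slc22a8, a barrier transporter gene.

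The libraries' own peaks bear on the label. Within 5 kb of the gene, all 18 general endothelial genes had a peak in both adult brain endothelial libraries. The same held for 4 and 4 of 8 neuron, 8 and 8 of 8 astrocyte, 4 and 5 of 8 oligodendrocyte, 4 and 4 of 8 microglia, 5 and 6 of 8 mural and 10 and 9 of 12 fibroblast genes. Endothelial genes were thus all marked, and so were genes of other cell types in part. The adult brain input had a peak at all 8 genes of each of the neuron, astrocyte, oligodendrocyte and microglia lists, 7 of 8 mural, 17 of 18 endothelial and 8 of 12 fibroblast genes. A peak within 5 kb was thus near its ceiling for several lists. The part of mural or fibroblast nuclei in the brain-only regions was not tested.

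In the single-cell RNA-seq of brain cells captured with anti-CD31 beads, from cortex at P8 and adult, the same lists had these summed levels in the adult, as CPM (unique molecular identifiers, UMIs, of a gene scaled to the library total): 15148.2 for the barrier transporters, 7358.2 for general endothelial, 2196.5 for Wnt, 1578.2 for mural and 94.9 for fibroblast genes. Of the 12 fibroblast genes 3 were above 10 CPM (Dcn at 29.7, Col1a2 at 21.8 and Foxd1 at 18.4), and none was at 0. Of the 8 mural genes 7 were above 10. These are other cells, captured in another way, than the nuclei of the ATAC-seq libraries.

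Some genes had many brain-only regions. The 2345 regions had 1785 nearest genes, of which 1391 had 1, 107 had at least 3 and 41 at least 4, and 380 regions (16.2%) belonged to a gene with at least 3. Slc7a11, which encodes the cystine and glutamate exchanger, was first with 8 regions, 7 in at least 2 P6 and 3 in at least 2 E12 brain libraries. Its region chr3:50484103-50484746 had 6.1 and 5.79 in the adult, a peak in no other P6 and in 7 of 8 other E12 libraries. Eya1, a transcription cofactor gene, had 6, and Alcam, Cdh5, Dock5, Foxp1, Gja1, Lmo4, Mapk4 and Marcks had 5 each. Organ-shared regions nearest to the same genes were 2 for Slc7a11, 1 for Eya1, 3 for Alcam, 1 for Dock5 and 2 for Mapk4. They were as many as the brain-only regions for Lmo4 (5) and more for Marcks (9), Cdh5 (10), Gja1 (11) and Foxp1 (15). These 10 genes were taken with ties broken by symbol; Mylk4, Osr1, Rbfox1 and Vstm2b also had 5, and Osr1 is in the fibroblast list. Alcam encodes a cell adhesion molecule; all 5 of its regions had at least 2 P6 brain peaks and no peak in any other P6 endothelial library. All 5 Alcam and all 8 Slc7a11 regions also had a peak in a P6 brain input. Distances could be large, with 1 Alcam region 875.5 kb from the gene's start. Over the 54 regions of these 10 genes, 48 had at least 2 P6 and 19 at least 2 E12 brain peaks, against the same 79.1% and 33.6%.

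The highest adult folds were mostly near genes outside the lists, and all 10 regions with the highest folds had a peak in at least 1 P6 brain input. The region nearest to Mrap, chr16:90779761-90780186, had 7.79 and 6.42 in the adult, 4.32, 6.85 and 7.44 at P6, and 3.08 and 3.21 in E12 libraries 2 and 3. It had a peak in no other P6 and in 5 other E12 libraries. Pi15, a protease inhibitor gene, had chr1:17655618-17656055 with 7.27 and 5.84 in the adult, 3.79, 6.23 and 6.03 at P6 and none at E12, and no other endothelial library of either age had a peak there. Kcnk2, a potassium channel gene, had chr1:189430501-189430930 with 7.39 and 6.49. Bnc2 had chr4:84088111-84088664 with 8.12 and 5.47, and Dcn, the fibroblast gene decorin, had chr10:97409091-97409529, 70.2 kb from its nearer end, with 7.76 and 5.91.

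The rule was then applied at the younger ages, asking for a peak in at least 2 of the 3 brain libraries. With no peak in any other P6 endothelial library or P6 brain input, 257 of the 2345 brain-only regions, against 0.773% of all merged regions, were brain-only at P6 too. The share of input-shared regions with at least 2 brain peaks at each of P6 and E12 and none in any other endothelial library of those ages was 2.17%. Of the brain-only regions, 35 met the same conditions (1.49%, against 0.183% of all merged regions). They lay a median of 46.6 kb from a start, and 7 of them had no peak in any P6 or E12 brain input. Only 3 had a peak in all 6 younger brain libraries, with the exact permutation p of 1.67e-05 and an adjusted p of 0.182. The first, chr3:97933244-97933578, lay 3.24 kb from Gm5544, with 5.69 and 3.92 in the adult, 4.15, 4.02 and 4.34 at P6 and 2.11, 2.6 and 2.56 at E12, and no younger brain input had a peak there. The others lay far from any start. That at chr9:84295870-84296423, 347.4 kb from Bckdhb, had 5.2 and 4.75 in the adult, 5.04, 7.06 and 7.54 at P6 and 2.95, 3.04 and 4.14 at E12. That at chr10:56795449-56795861, 418.4 kb from Gja1, which encodes the gap junction protein connexin 43, had 4.69 and 3.89 in the adult, 3.67, 4.7 and 4.69 at P6 and 3.7, 3.06 and 3.6 at E12. Others of the 35 were nearest to Edn3, Sfrp1, Tgfbr2, Mef2c, Socs3, Lmo4 and Alcam.

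Expression of the nearest genes was read from the single-cell libraries, of which there is 1 per age, so no test was possible. The P8 and adult libraries are labelled cortex and the younger ones brain, so age and tissue cannot be told apart between these pairs. The E9.5, E12.5, P8 and adult libraries held 17176, 8310, 7305 and 5552 cell barcodes, and any 2 of them had 2 to 31 barcodes in common. In the adult, 801 of the 1688 nearest genes of brain-only regions that the gene files name (47.5%) were above 10 CPM, with a median of 8.33. The share was 57.9% for genes nearest to organ-shared regions, 46.1% for input-shared, 46.4% for all merged regions and 39.7% for all genes. The genes nearest to brain-only regions were thus expressed about as often as those nearest to any adult endothelial region. For genes nearest to at least 3 brain-only regions the share was 51.9%. Of the named genes with most regions, Slc7a11, Eya1, Dock5 and Mapk4 had 6.82, 1.43, 5.08 and 1.53 CPM. Alcam, Gja1, Lmo4, Marcks, Cdh5 and Foxp1 had 33.8, 57.1, 65.4, 118.8, 298.4 and 453.0. Of those named for the highest folds, Mrap, Bnc2, Pi15, Kcnk2 and Dcn had 0.557, 0.731, 1.08, 4.98 and 29.7.

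The summed marker levels of these unfiltered libraries moved with age. That of the general endothelial genes was 2532.9, 4213.2, 5697.4 and 7358.2 CPM at E9.5, E12.5, P8 and adult, and that of the mural genes 19.4, 142.5, 907.4 and 1578.2. Flt1 alone had 1181.1 CPM at P8 and 3053.8 in the adult, so the last endothelial rise rested on that gene. Kdr fell from 886.5 to 268.8 between these ages. The median of the 18 endothelial genes was 79.7, 173.1, 172.1 and 224 CPM at the 4 ages. These sums do not give the share of endothelial cells in a library. The part of library make-up in the levels of single genes was not tested. Lef1 had 25.1, 70.0, 178.7 and 465.7 CPM at E9.5, E12.5, P8 and adult, and Itih5 had 4.08, 2.54, 73.8 and 872.3. Both were highest in the adult library (exact Poisson 95% intervals of 457.9 to 473.7 and 861.5 to 883.1 there); with 1 library per age the spread between libraries is not known. Slc22a8 had 0.142, 27.1, 433.5 and 305.0, and Tcf7 8.04, 36.8, 89.8 and 73.0, both highest at P8. Fgfbp1 had 1.07, 3.36, 46.9 and 2.37; its adult level rested on 68 UMIs (1.84 to 3.0), although its nearer region was open in both adult libraries with folds of 5.69 and 6.51. Foxl2, at 0.731 CPM in the adult, and Rnf43, at 0.209 from 6 UMIs (0.0766 to 0.454), rested on few UMIs. Edn3 had 143.6, Zic2 130.1, Nkd1 114.1, Zfp366 47.9 and Apcdd1 29.6 CPM in the adult. Genes with a printed promoter were below 10 CPM in the adult: Itih2, Slc13a4, Aspg, Tecrl and Slc6a13 had 1.46, 1.98, 0.626, 5.57 and 6.3. Of the other starts named, Pdpn, Six2, Islr, Col6a3 and Bmp4 had 2.82, 0.244, 3.93, 2.12 and 8.32. S1pr3, at 14.1, and Aldh1a1 were above 10. Whether the start regions came from endothelial nuclei was not tested. Ptgdr, the gene of the first printed promoter, had 4 UMIs (0.139 CPM, 0.0379 to 0.356). These intervals cover counting error only.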

How the data were processed

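Peaks were called for each library without a control by MACS2, per the file headers; the deposited lists give for each peak the authors' pileup signal, fold enrichment (a ratio to local background) and −log10 q-value. Alignment to mm10 comes per the submitters' processing notes. The deposited single-cell files hold UMI counts per barcode by the authors. Peaks were merged by any overlap of at least 1 bp, and a region had a peak in a library where any peak overlapped it. Members and gene lists were chosen with earlier results of these data known. Starts came from RefSeq GRCm38.p6: 17492 of 21887 protein-coding genes had a known start, and for the rest the nearer gene end served. The text names listed genes with a region within 50 kb, the highest adult folds, regions over starts and genes with most regions; a rule for regions past the adjusted test named none, so an unadjusted exact p under 0.05 replaced it after the values were seen. UMIs were summed over all deposited barcodes of a library, with no filter on cells and no doublet removal. Alternatives covered the q-value limit, overlap, list length, the input condition and leaving out libraries. Scripts used Python 3.11.15, numpy 2.4.6, pandas 2.3.3 and scipy 1.17.1 and were tested on simulated data. Bulk RNA-seq and the E16.5 single-cell library were not used here. Some results on single regions are not reported here.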

Additional observations from a re-analysis of the deposited data

Results flagged for a closer look

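In E12 heart endothelial library 3, 5.07% of the brain-only regions had a peak, while the other 3 E12 heart libraries had 30.8% to 35.3%. The gap to the nearest of the others was 0.852 of the whole range, above Dixon's critical value for 4 samples. It also had the fewest tags of all ATAC-seq libraries, 10.1 M, and 39096 peaks, and its part in the low share was not tested. Chance marks about 1 in 20 such groups, and 2 groups were examined.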

How the results depend on the processing

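The number of brain-only regions was 895 with a −log10 q-value of at least 5, 1566 with lists of equal length and 5755 without the input condition. It ran from 2347 to 5962 with 1 library left out, 5962 and 3965 without adult brain library 1 and 2. No brain-only region passed the adjusted test under any of the 44 settings run, which says nothing of stability: the smallest p was 0.00275 with P6 alone and 0.00606 with E12 alone, and the smallest adjusted p under the block was 1.0. The unadjusted count of 1035 (44.1% of the members, 5.36% of all regions) became 352 (39.3%, 3.64%) at the stricter q-value, 431 (27.5%, 3.54%) with lists of equal length, 2391 (41.5%, 5.36%) without the input condition and 97 (4.14%, 1.11%) with E12 alone, where the first 3 settings also changed the number of members, and ran from 427 to 1601 with 1 library left out. With a replicate block it was 466 (19.9%, 2.49%). Replicate numbers did not pair the libraries: deviations of same-numbered libraries correlated by −0.0783 to 0.0953 at P6 and −0.122 to 0.0818 at E12. The P6 share of 79.1% was 71.1% at the stricter q-value, 36.0% with equal lists, 81.2% without the input condition, 94.1% for at least 1 library and 20.6% for all 3, and 20.7% to 80.2% with 1 library left out. The E12 share of 33.6% was 10.2%, 40.3% and 26.9% for equal lists, at least 1 and all 3, and 26.1% to 39.2% with 1 left out. The share within 1 kb of a start, 2.39%, was 3.69% at the stricter q-value, 7.6% with equal lists, 4.29% without the input condition, 1.66% within 500 bp, 9.13% within 5 kb, 1.79% with known starts only (added after seeing the data), and 2.18% to 2.57% with 1 library left out. Of the settings run, 12 of 16 gave a number of regions within 1.5 times, and 12 of 21 for each age share and 13 of 19 for the share near starts fell within its 95% Wilson interval. That interval covers counting error over the regions only, so these counts do not measure the spread between libraries. The cause of these changes was not tested.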
